A study of Homo sapiens with 4 samples.

Results

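The Wnt/beta-catenin components and target genes of HCT116 cells were followed here as a group of 38 genes out of the 20263 in the count table. They were listed by symbol in 4 roles: receptors and destruction complex, TCF factors, negative feedback genes, and other targets. Their Ensembl identifiers were matched to GENCODE symbols. The rule for members uses no measured value, but the members were chosen with earlier results of these data known. HCT116 is an established human colorectal carcinoma cell line, labelled wild type in this series. Cells received either 0.1% DMSO, the solvent control, or 32 µM HJ-4, an amide derived from the natural product piperine, for 24 h. That HJ-4 dose is given by the labels and the study's methods, whereas the legend of its transcriptome figure names a lower one. RNA was sequenced in 2 libraries per condition. The methods of the study describe biological triplicates, whereas 2 libraries of each condition were analysed here. The labels do not say whether these were separate cultures, so a p-value here reflects only how far these libraries scattered, and that scatter could be technical.

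In the Wnt/beta-catenin pathway, a complex of APC, axin, casein kinase 1 alpha and GSK3 beta holds beta-catenin and marks it for destruction. When a Wnt ligand binds a frizzled receptor and an LRP coreceptor, dishevelled proteins are recruited, the complex is inhibited and beta-catenin accumulates. Beta-catenin then enters the nucleus and binds TCF/LEF factors, which switch on target genes, several of which encode inhibitors of the same pathway. In the intestine this pathway maintains the crypt stem cells, and most colorectal tumours carry a mutation that activates it. As background, HCT116 carries an activating mutation of CTNNB1 and an intact APC gene.

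The letters that TCF/LEF factors bind were searched in the members' promoters, because that binding links beta-catenin to its targets. The core CTTTGAT, or ATCAAAG on the other strand, was looked for from 250 bases before to 50 bases after each annotated start in the RefSeq promoters of GRCh38.p14. Of the 28 members with an entry, 1 held it (3.57%), beside 867 of 27305 genes (3.18%) in the whole table. The gene was SP5, a transcription factor induced by Wnt signalling, whose match lay 109 bases before the start. The stretch around it follows, with the core in capitals, read 5′ to 3′ on the plus strand at chr2:170715213-170715249.
SP5 promoter: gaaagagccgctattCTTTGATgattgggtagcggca
SP5 was at 1.72 and 1.89 CPM (counts scaled to library size, with TMM scaling between libraries) with DMSO and at 1.41 and 1.50 CPM with HJ-4. Both HJ-4 libraries were below both DMSO libraries, with a log2 fold change of -0.31 (SE 0.23, adjusted p = 0.54 in edgeR). The members without an entry were AXIN2, NOTUM, NKD1, ZNRF3, LGR5, ASCL2, SOX9, LRP6, FGF9 and FZD7, so their promoters were not searched. Those searched include pathway components as well as targets. A match in a promoter is a description of letters. The lack of one says nothing about enhancers, other windows or other forms of the site.

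The libraries held 29769568 to 34359889 counts, with 6.01% to 7.73% on mitochondrially encoded genes. In edgeR's quasi-likelihood test 14044 genes were tested, of which 7 passed an adjusted p of 0.05 (0.0498%). Fold changes are given as HJ-4 over DMSO, and their median over the tested genes was 0.00 on the log2 scale. The epithelial markers summed to 3981 to 4475 CPM, and 6 of the 8 were over 1 CPM, among them EPCAM and KRT8, while VIL1 and LGALS4, markers of differentiated gut epithelium, were under 1 CPM. Of the 6 fibroblast markers 3 were at 0 in every library (COL1A2, DCN and LUM), and their sums of 59.0 to 63.1 CPM came almost entirely from COL1A1. The 4 endothelial markers summed to 1.43 and 1.56 CPM with DMSO and to 2.01 and 2.11 CPM with HJ-4. The 5 leukocyte markers summed to 34.2 and 40.3 CPM with DMSO and to 46.5 and 50.8 CPM with HJ-4, almost all of it CD68, with CD3E at 0 in every library. The part of these markers in the results for Wnt genes was not tested. In bulk RNA, fewer cells of a type and less RNA per cell cannot be told apart.

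Among the 38 members, none passed the adjusted threshold in edgeR. The lowest adjusted p was 0.086, that of SOX4. Of the 34 members tested, 21 had a negative (61.8%) and 13 a positive log2 fold change, beside 49.3% negative over all genes tested. The members' median was -0.10 (range -0.80 to 0.78). At an unadjusted p under 0.05, 8 members were lower with HJ-4 (23.5%) and 4 higher (11.8%), whereas over all genes tested the shares at that threshold were 7.93% lower and 7.93% higher. The 8 were SOX4, AXIN2, NOTUM, NKD1, TNFRSF19, TCF7L1, FZD7 and TCF7, and the 4 were DVL1, CD44, APC and LGR4. Both HJ-4 libraries lay below both DMSO libraries for 15 members (44.1%, against 25.6% of all genes) and above them for 8 (23.5%, against 25.2%), and 11 members overlapped. Leaving out HJ-4 1 or HJ-4 2 brought the members at an unadjusted p under 0.05 from 12 to 6. Over all genes the number at that threshold fell as well, and each of these fits had a single HJ-4 library. A permutation of 2 against 2 libraries cannot reach 0.05, so none was run.

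**Figure D1:**
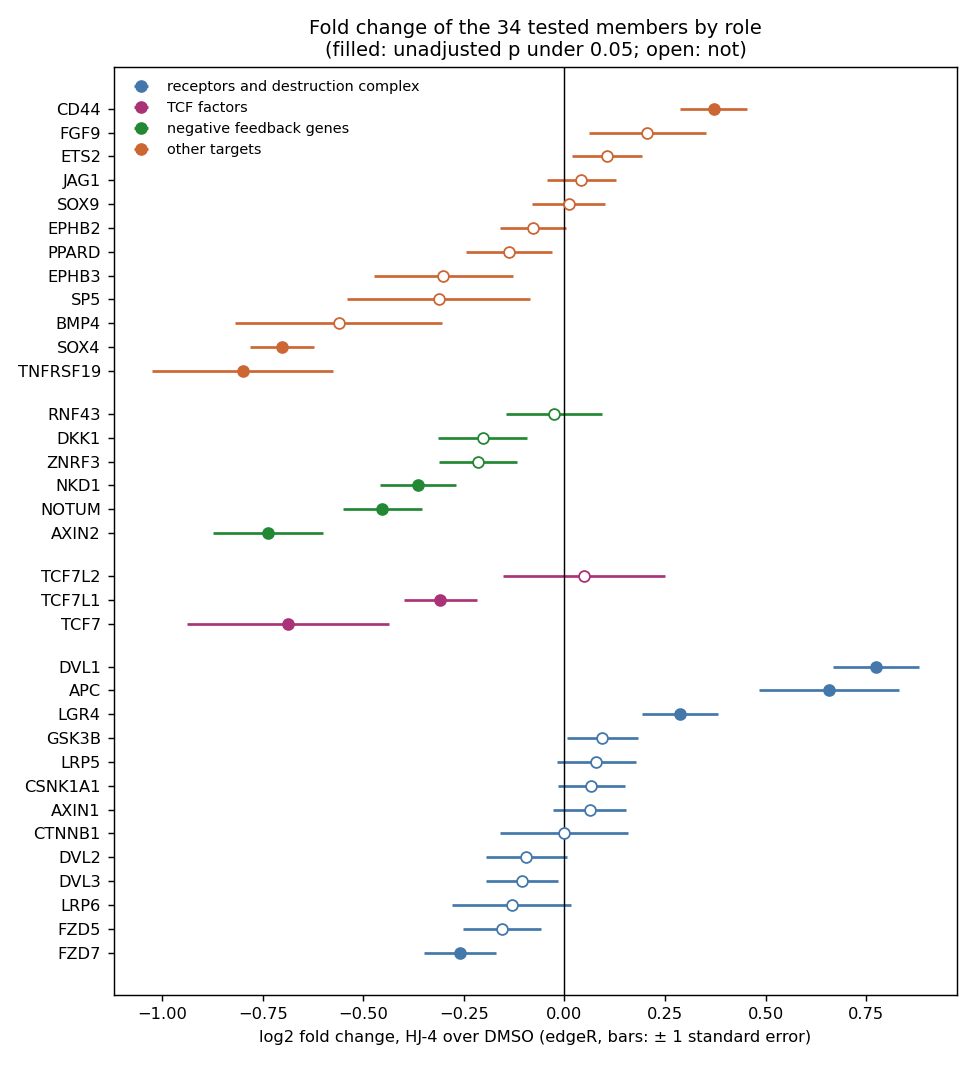
Log2 fold change, HJ-4 over DMSO, of the 34 tested members by role, with bars of 1 standard error from edgeR and filled points for an unadjusted p under 0.05. The 6 tested negative feedback genes all lie left of 0, whereas receptors and destruction complex genes lie on both sides, with DVL1 farthest right at 0.78.

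Under DESeq2's Wald test 4 members passed an adjusted p of 0.05, DVL1 and CD44 higher and SOX4 and AXIN2 lower. That test called 2.33% of all genes higher and 1.76% lower, and limma-voom called none of the members. The alternatives refit the same libraries from which the 12 members were picked by p. A p that stays low in them is therefore no independent support, and the share of all genes that do so was not counted. The 4 genes that kept an unadjusted p under 0.05 in each of 12 alternatives were DVL1, AXIN2, NOTUM and SOX4.

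The 13 receptor and destruction complex genes were centred near 0, with a median log2 fold change of 0.06, 7 positive and 6 negative. CTNNB1 (ENSG00000168036, chr3:41194741-41260096), which encodes beta-catenin itself, was at 225 and 305 CPM with DMSO and at 274 and 255 CPM with HJ-4. The HJ-4 values lay inside the DMSO range, and the log2 fold change was -0.0017 (SE 0.16, adjusted p = 1.00 in edgeR). Its direction turned with the DMSO library left out, from -0.20 without DMSO 1 to 0.23 without DMSO 2.

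DVL1 (ENSG00000107404, chr1:1335276-1349418, minus strand), one of the dishevelled proteins that pass the signal from frizzled to the destruction complex, had the largest log2 fold change of this role. It was at 160 and 136 CPM with DMSO and at 247 and 260 CPM with HJ-4. The conditions did not overlap, and the HJ-4 mean was 1.71 times the DMSO mean. The log2 fold change was 0.78 (SE 0.11), with an unadjusted p of 0.00078 and an adjusted p of 0.11 in edgeR. Without DMSO 1 the adjusted p became 0.045, the only member call that leaving out a library produced, and in DESeq2 the adjusted p was 3.4e-07. Its exons share 39 bases with the taste receptor gene TAS1R3 on the opposite strand, which held 15 to 25 counts per library.

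For the other dishevelled genes the conditions lay closer together. DVL2 was at 77.8 and 79.0 CPM with DMSO and at 68.0 and 78.8 CPM with HJ-4, and DVL3 at 89.1 and 94.0 CPM and at 81.2 and 89.0 CPM. Their log2 fold changes were -0.09 and -0.11. Per kilobase of exon, DVL1 supplied 58.9% and 54.1% of dishevelled reads with DMSO and 71.3% and 69.8% with HJ-4. The summed dishevelled level was 70.0 and 64.8 CPM per kilobase with DMSO and 89.4 and 95.8 with HJ-4. The difference between the family members was not tested.

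**Figure D2:**
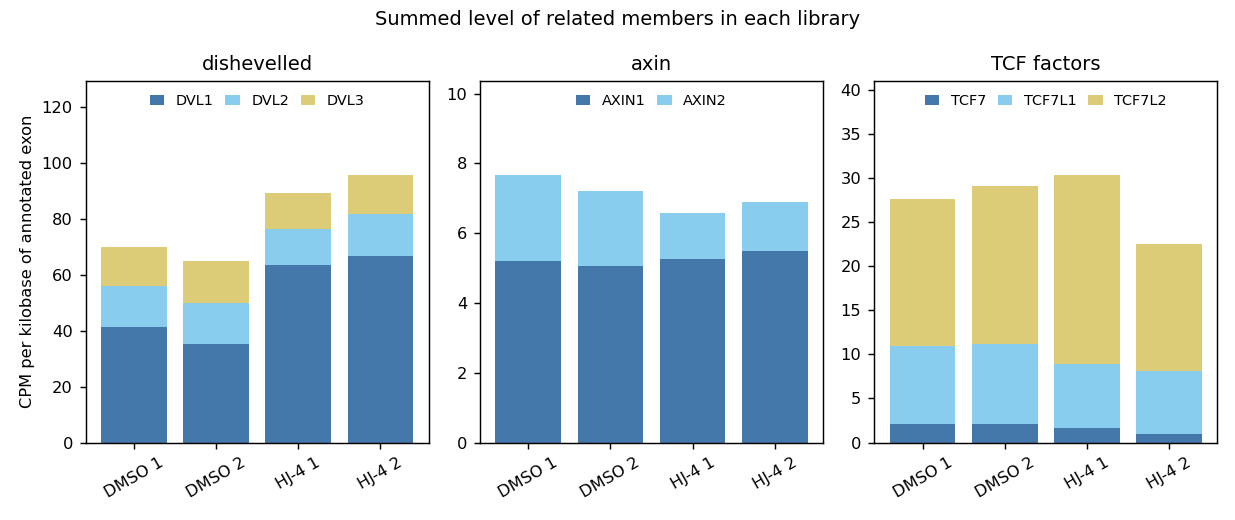
Stacked bars of CPM per kilobase of annotated exon for related members in each of the 4 libraries, in panels for dishevelled, axin and TCF factors. DVL1 takes 69.8% to 71.3% of the dishevelled sum with HJ-4 and 54.1% to 58.9% with DMSO, and AXIN2 takes 20.4% to 20.5% of the axin sum with HJ-4 and 29.7% to 32.1% with DMSO.

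APC (chr5:112707518-112846239), the scaffold of the destruction complex, was at 8.44 and 6.35 CPM with DMSO and at 11.8 and 11.5 CPM with HJ-4. It was higher in both HJ-4 libraries, and the log2 fold change of 0.66 (SE 0.18) had an unadjusted p of 0.013 and an adjusted p of 0.23. LGR4, a receptor for the R-spondins that protects frizzled from removal, was at 50.1 and 45.4 CPM with DMSO and at 58.7 and 57.8 CPM with HJ-4. Its log2 fold change was 0.29 (SE 0.09, unadjusted p = 0.029). FZD7, a frizzled receptor, was at 35.2 and 35.1 CPM with DMSO and at 29.0 and 29.7 CPM with HJ-4, the only member of this role lower at an unadjusted p under 0.05. Its log2 fold change was -0.26 (SE 0.09, unadjusted p = 0.035).

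The remaining 9 genes of this role had log2 fold changes between -0.15 and 0.09. They were the kinases GSK3B and CSNK1A1, the scaffold AXIN1, the coreceptors LRP5 and LRP6, the receptor FZD5, and CTNNB1, DVL2 and DVL3. AXIN1, for example, was at 39.3 and 38.2 CPM with DMSO and at 39.5 and 41.4 CPM with HJ-4, and GSK3B at 115 and 127 CPM and at 129 and 130 CPM. LRP6 was at 47.6 and 61.5 CPM with DMSO and at 51.8 and 47.8 CPM with HJ-4, so its DMSO libraries differed more than the conditions did. CSNK1A1, LRP5 and ETS2 have annotated copies of related sequence, CSNK1A1L, CSNK1A1P1, CSNK1A1P3, LRP5L and ETS2P1, so counting could split their reads.

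Of the 4 TCF factors, which bring beta-catenin to DNA, 3 were measured and LEF1 had no count in any library. TCF7L1 was at 39.1 and 40.1 CPM with DMSO and at 32.2 and 31.8 CPM with HJ-4. The libraries of a condition lay close together and apart from the other condition, with a log2 fold change of -0.31 (SE 0.09, unadjusted p = 0.019, adjusted p = 0.24). TCF7 (chr5:134114681-134151865) was at 20.8 and 21.1 CPM with DMSO and at 16.2 and 9.77 CPM with HJ-4. Both HJ-4 libraries were below DMSO but differed widely between themselves, and the log2 fold change of -0.69 (SE 0.25, adjusted p = 0.30) became -1.09 without HJ-4 1 and -0.38 without HJ-4 2. Its exons share 210 bases with SKP1 on the opposite strand, a gene of 3776 to 4171 counts per library.

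TCF7L2, the leading TCF factor of intestinal epithelium, was at 112 and 121 CPM with DMSO and at 145 and 96.7 CPM with HJ-4. The HJ-4 libraries lay on either side of DMSO, and the log2 fold change was 0.05 (SE 0.20, adjusted p = 0.92). Per kilobase it supplied 60.5% and 61.7% of TCF reads with DMSO and 70.8% and 63.8% with HJ-4, so it was the main TCF transcript in every library.

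The negative feedback genes, which are targets of the pathway and restrain it, shared 1 direction. Of 7 genes 6 were tested, and all 6 had a negative log2 fold change (median -0.29), beside 49.3% of all genes tested. For 5 of them both HJ-4 libraries lay below both DMSO libraries, beside 25.6% of all genes. The log2 fold change of RNF43 turned to 0.037 without DMSO 2 and to 0.096 without HJ-4 1. The other 5, whose conditions did not overlap, kept their sign. At an unadjusted p under 0.05, 3 were lower, AXIN2, NOTUM and NKD1, beside 7.93% of all genes tested. None of the 6 passed the adjusted threshold in edgeR, and APCDD1, a membrane inhibitor, had no count in any library.

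AXIN2 (ENSG00000168646, chr17:65528563-65561648, minus strand), a destruction complex scaffold that is a common readout of beta-catenin activity, was at 12.8 and 11.1 CPM with DMSO and at 6.99 and 7.37 CPM with HJ-4. The conditions did not overlap, and the HJ-4 mean was 0.600 of the DMSO mean. The log2 fold change was -0.74 (SE 0.14), with an unadjusted p of 0.0030, an adjusted p of 0.16 in edgeR and of 0.021 in DESeq2. It shares 1316 exon bases with a gene on the same strand, ENSG00000266076, which held 12 counts in HJ-4 1 and none in the other libraries. Set beside its paralogue AXIN1, AXIN2 was 32.1% and 29.7% of the axin sum per kilobase with DMSO and 20.4% and 20.5% with HJ-4.

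NOTUM (chr17:81952507-81961840), a secreted enzyme that strips the lipid from Wnt ligands, was at 22.5 and 21.9 CPM with DMSO and at 16.1 and 16.3 CPM with HJ-4. The 2 libraries of each condition differed by less than 1 CPM, and the log2 fold change was -0.45 (SE 0.10, unadjusted p = 0.0057, adjusted p = 0.18). NKD1 (chr16:50548396-50649249), which binds dishevelled and limits its signal, was at 45.6 and 45.2 CPM with DMSO and at 33.9 and 36.6 CPM with HJ-4. Its log2 fold change was -0.36 (SE 0.09, unadjusted p = 0.012, adjusted p = 0.22).

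ZNRF3 and RNF43 are ubiquitin ligases that remove frizzled from the membrane. ZNRF3 was at 26.2 and 24.6 CPM with DMSO and at 21.8 and 21.9 CPM with HJ-4 (log2 fold change -0.22, adjusted p = 0.35), while RNF43 overlapped at 44.8 and 48.9 CPM and at 42.3 and 49.7 CPM (log2 fold change -0.03, adjusted p = 0.93). Their difference was not tested. DKK1, a secreted inhibitor of the LRP coreceptors and per kilobase the most abundant of the members, was at 358 and 313 CPM with DMSO and at 310 and 272 CPM with HJ-4. Its log2 fold change was -0.20 (SE 0.11, adjusted p = 0.43), and it was -0.10 without DMSO 1, -0.12 without HJ-4 2 and -0.30 without DMSO 2.

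**Figure D3:**
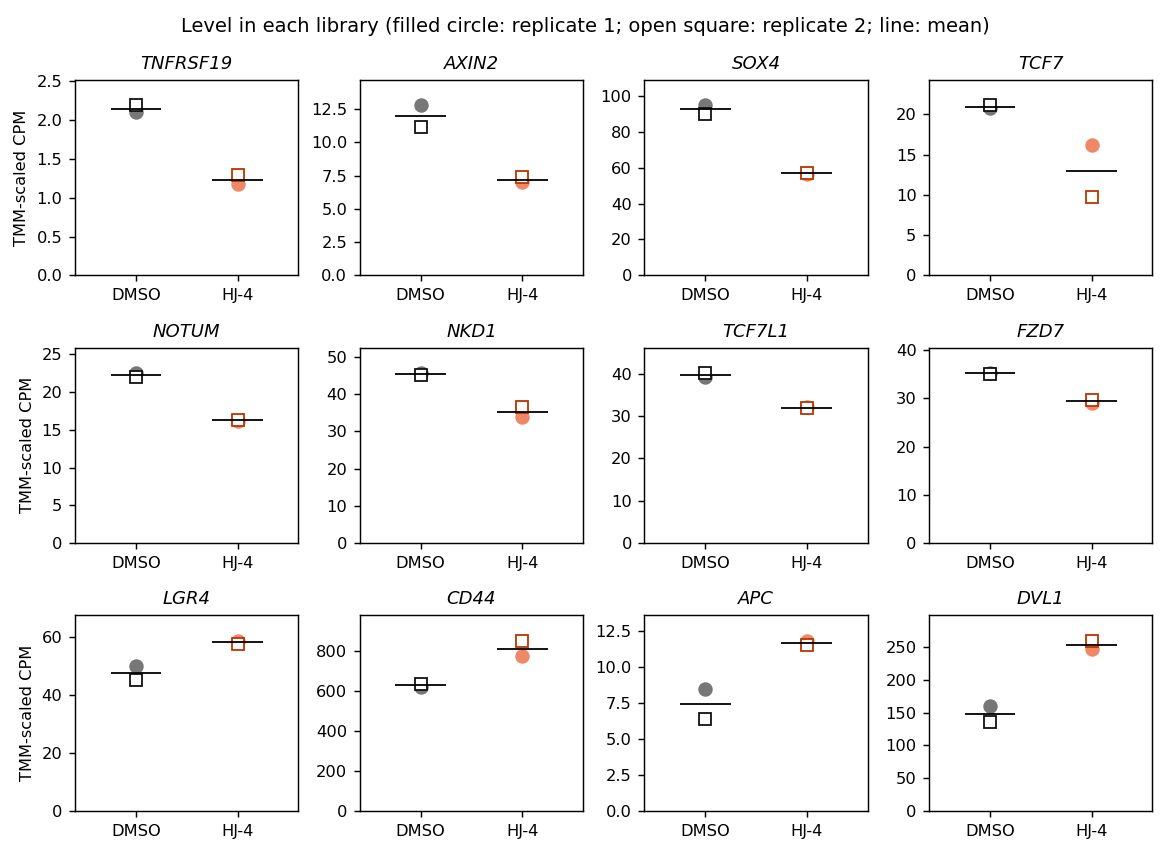
TMM-scaled CPM of the 12 members at an unadjusted p under 0.05, one panel each on a linear axis from 0, with a filled circle for replicate 1, an open square for replicate 2 and a line for the mean. The 12 were picked by that p from these same libraries, so the lack of overlap in all 12 panels follows largely from the choice. Over all genes tested, both HJ-4 libraries were above both DMSO libraries for 25.2% and below them for 25.6%. TCF7 has, relative to its mean, the widest gap between HJ-4 points, at 16.2 and 9.77 CPM.

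The 14 other targets pointed both ways. Of the 12 tested, 7 had a negative and 5 a positive log2 fold change (median -0.11). SOX4 (ENSG00000124766, chr6:21593751-21598619), a transcription factor of progenitor cells, was at 94.8 and 90.1 CPM with DMSO and at 56.3 and 57.3 CPM with HJ-4. Within a condition the libraries differed by far less than the conditions did, and the HJ-4 mean was 0.614 of the DMSO mean. The log2 fold change was -0.70 (SE 0.08), with an unadjusted p of 0.00032 and an adjusted p of 0.086 in edgeR and of 1.4e-08 in DESeq2. TNFRSF19, a receptor of the tumour necrosis factor family found in stem cells, had the largest negative log2 fold change of the members, -0.80 (SE 0.23, adjusted p = 0.24). It was at 2.10 and 2.19 CPM with DMSO and at 1.17 and 1.29 CPM with HJ-4, from 40 to 66 counts per library.

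CD44 (chr11:35138882-35232402), a cell surface glycoprotein that binds hyaluronan, was higher in both HJ-4 libraries. It was at 620 and 638 CPM with DMSO and at 775 and 852 CPM with HJ-4. The log2 fold change was 0.37 (SE 0.08), with an unadjusted p of 0.0065 and an adjusted p of 0.19 in edgeR and of 0.011 in DESeq2. SOX9, a crypt transcription factor of high level, was at 338 and 298 CPM with DMSO and at 324 and 318 CPM with HJ-4, with a log2 fold change of 0.01.

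BMP4, a ligand of the TGF-beta family, was at 52.1 and 30.9 CPM with DMSO and at 29.1 and 27.1 CPM with HJ-4. The gap rested on DMSO 1: the log2 fold change of -0.56 (SE 0.26, adjusted p = 0.36) was -0.14 without that library. EPHB3, an ephrin receptor that positions crypt cells, also depended on that library, with -0.30 as fitted and -0.09 without DMSO 1, whereas its paralogue EPHB2 was at 66.6 and 66.1 CPM and at 64.5 and 61.2 CPM (log2 fold change -0.08). The nuclear receptor PPARD, the Notch ligand JAG1, the transcription factor ETS2 and the growth factor FGF9 had log2 fold changes of -0.14, 0.04, 0.11 and 0.21, and that of PPARD was -0.024 without DMSO 1, -0.081 without HJ-4 1 and -0.25 without DMSO 2. LGR5 and ASCL2, which mark intestinal stem cells, were not tested: ASCL2 had no count, and LGR5 had 2 counts in HJ-4 2 only. A library with no count allows up to 3 counts, or 0.0881 to 0.0997 CPM, which covers counting error only, so LEF1, APCDD1 and ASCL2 were not detectable at this depth.

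**Figure D4:**
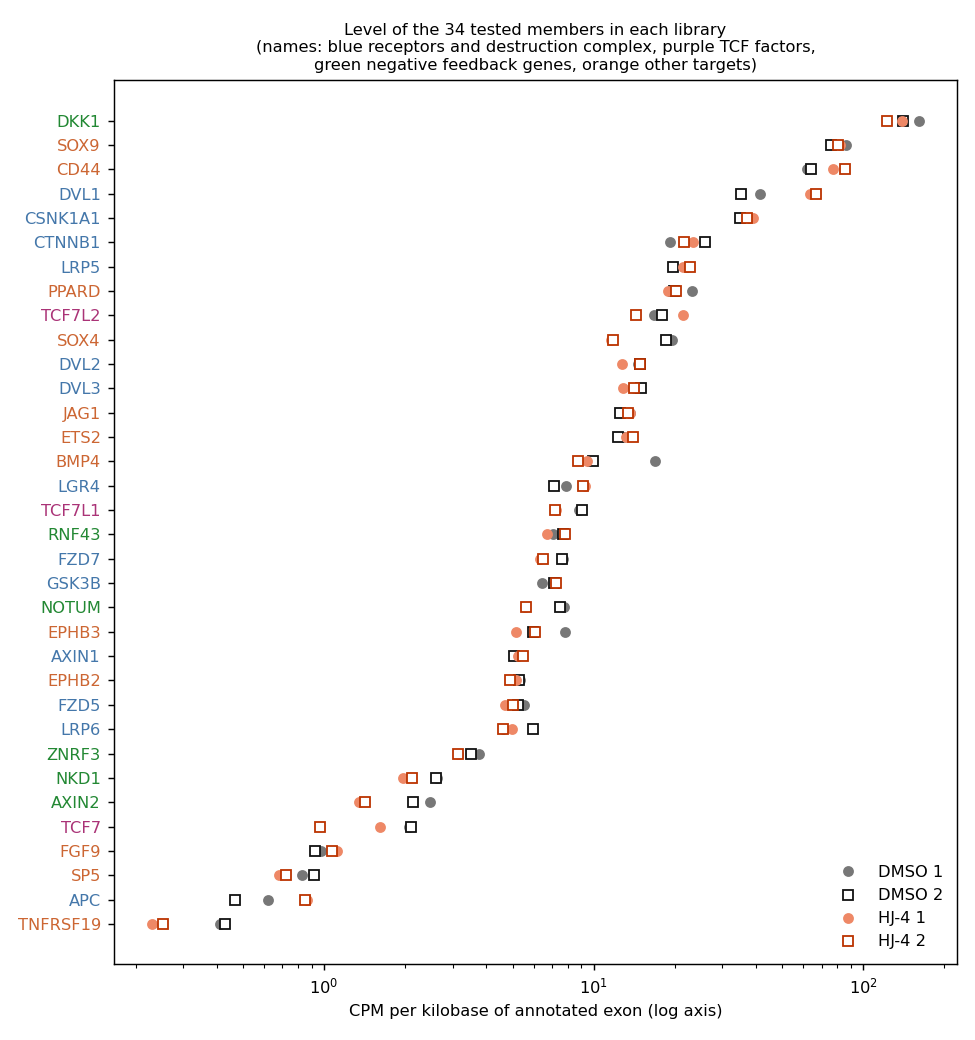
CPM per kilobase of annotated exon (log axis) of the 34 tested members in each library, ordered by mean level, with names coloured by role. DKK1, SOX9 and CD44 lead with means of 141, 81.3 and 72.2, and TNFRSF19 is lowest at 0.330.

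Compared per length, DKK1 (141 CPM per kilobase over the 4 libraries), SOX9 (81.3), CD44 (72.2), DVL1 (51.7), CSNK1A1 (37.2) and CTNNB1 (22.5) led the members, and FGF9 (1.02), SP5 (0.786), APC (0.700) and TNFRSF19 (0.330) were lowest of those tested. The length joins all annotated exons of a gene, 2221 bases for DKK1, 9992 for CD44 and 11759 for CTNNB1. Which transcripts were in use was not determined, so this order and the shares within families depend on that length. In CPM not divided by length CD44 was above DKK1, with means of 629 and 335 with DMSO and of 813 and 291 with HJ-4. Per kilobase, CTNNB1, LRP5 (21.5) and PPARD (20.5) lay closer together than the CTNNB1 libraries of DMSO lay to each other. Between libraries of 1 condition, the members' median gap was 0.11 (DMSO) and 0.09 (HJ-4) on the log2 scale, against 0.16 and 0.11 for all genes.

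Beyond the members, 100 other Wnt genes were listed in 6 groups, and 77 of them were tested. None passed the adjusted threshold in edgeR. In DESeq2 5 did, 3 of them higher with HJ-4, where that test called 2.33% of all genes higher and 1.76% lower. The median log2 fold change of the 77 was -0.03. Before adjustment, p in edgeR was under 0.05 for 8 genes higher with HJ-4 (10.4%) and for 6 lower (7.79%). These shares lay near the 7.93% of all genes tested in each direction. By group, the genes under that threshold were 1 higher and 2 lower of 18 ligand and secretion genes, and 1 higher of 13 other receptors. They were 3 higher and 1 lower of 18 cytoplasmic components, 1 higher and 1 lower of 13 nuclear partners, and 2 higher and 2 lower of 13 further targets. Of 10 other secreted inhibitors 2 were tested, and neither was under that threshold. How the members differ from these genes was not tested. MYC, the classical colorectal target, was at 17.5 and 13.3 CPM with DMSO and at 4.52 and 8.99 CPM with HJ-4. Its log2 fold change of -1.19 (SE 0.35, adjusted p = 0.25 in edgeR and 0.049 in DESeq2) was -0.76 without HJ-4 1 and -1.78 without HJ-4 2. CCND1, which encodes cyclin D1, was at 447 and 418 CPM and at 459 and 451 CPM (log2 fold change 0.07, adjusted p = 0.66). FOSL1, another of the further targets, was at 161 and 112 CPM with DMSO and at 208 and 222 CPM with HJ-4. Its log2 fold change was 0.65 (SE 0.18, adjusted p = 0.24 in edgeR). Of the 13 further targets tested, 8 had a positive and 5 a negative log2 fold change, and DESeq2 called 2 higher and 1 lower.

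Among the genes with the smallest unadjusted p, KREMEN1, a receptor for DKK1, was at 54.8 and 84.8 CPM with DMSO and at 136 and 142 CPM with HJ-4 (log2 fold change 0.99, adjusted p = 0.18 in edgeR and 0.0011 in DESeq2). Without DMSO 2 its log2 fold change was 1.34 and the adjusted p in edgeR 0.033. PLAUR, the urokinase receptor, was higher in both HJ-4 libraries (log2 fold change 0.48, adjusted p = 0.17 in edgeR and 0.0056 in DESeq2), as were RNF146, a ligase that acts on axin (0.46, adjusted p = 0.19), and the kinase CSNK1G3 (0.40, adjusted p = 0.23). WNT16, a Wnt ligand, was at 116 and 114 CPM with DMSO and at 83.2 and 77.5 CPM with HJ-4 (log2 fold change -0.52, SE 0.08, adjusted p = 0.13 in edgeR and 0.00014 in DESeq2). TLE3, a corepressor of TCF factors, and AMER1, a partner of APC, were lower in both libraries as well, with log2 fold changes of -0.29 and -0.35.

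**Figure D5:**
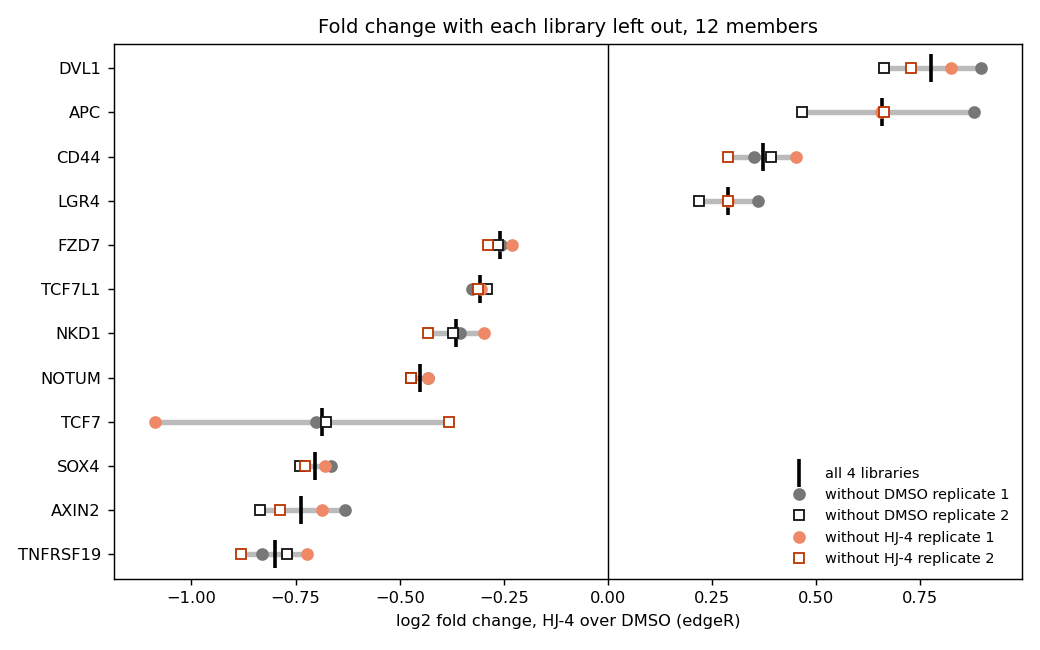
Log2 fold change, HJ-4 over DMSO, of the 12 members at an unadjusted p under 0.05, with all 4 libraries (black bar) and with each library left out (symbols), joined by a grey line. The 12 were picked from these same libraries and their conditions do not overlap, so leaving out a library could hardly turn a sign. All 12 stay on their side of 0, and TCF7 spreads most, from -1.09 to -0.38.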

How the data were processed

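The values are unnormalized read counts, which the authors deposited as 1 table of genes by libraries. The study's methods name STAR, GRCh38 and featureCounts, whereas HISAT2, RSEM and bedtools appear in the processing notes of the submitters. These sources differ on the aligner and the counting tool, and neither gives the strand setting. Either choice would move the counts of overlapping or near-identical genes. Each column was assigned through its library name, which the labels give. Symbols, coordinates and exon lengths came from GENCODE v44 on GRCh38, in which 20148 of 20263 identifiers matched.

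Genes were kept by filterByExpr (minimum count 10), scaled by TMM and tested by edgeR 4.0.16 (R 4.3.3) for condition alone, with Benjamini-Hochberg adjustment across all 14044 genes. CPM are scaled by TMM, and CPM per kilobase were divided by the summed length of all annotated exons, with overlapping bases counted once. DESeq2 1.42.0 and limma 3.58.1 (voom, and log2(TPM + 1)), other scalings and filters, a replicate block and leaving out each library were the alternatives. A block with the replicate numbers crossed was added after the data were seen. The fit was tested first on simulated counts. The named genes are all 38 members, MYC, CCND1, and up to 4 higher and 4 lower of the other pathway genes by smallest unadjusted p. FOSL1 and the genes under other observations were named beside these. The members and lists were chosen with earlier results of these data known. Promoter letters came from RefSeq on GRCh38.p14, with 10 members not in that table, and no protein sequences were compared.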

Additional observations from a re-analysis of the deposited data

How the results depend on the processing

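No member passed an adjusted p of 0.05 in edgeR under any scaling or filter or in either limma fit, 4 passed in DESeq2's Wald test, and leaving out each library gave 0 to 1 (DVL1, without DMSO 1). The members at an unadjusted p under 0.05 numbered 12 as fitted and 6 to 13 with a library left out, of which 2 to 4 were higher and 4 to 9 lower. The lowest number came without either HJ-4 library, and the number over all genes fell in those fits as well. Of the 34 members, 26 kept their sign under the alternatives that gave a value for them, which were 12, or 11 for SP5, TNFRSF19 and FGF9 (below the filter of a mean of 5 CPM). The crossed replicate numbers were run for counts alone. Where the conditions do not overlap, leaving out a library can hardly turn a sign. With a library left out, the signs that turned were those of CTNNB1 (-0.20 to 0.23), LRP5 (-0.0059 to 0.17), LRP6 (-0.30 to 0.064), DVL2 (-0.22 to 0.020), TCF7L2 (-0.26 to 0.30), RNF43 (-0.16 to 0.10), SOX9 (-0.079 to 0.10) and JAG1 (-0.019 to 0.10). CTNNB1 also turned to 0.014 in limma-voom, 0.031 on log2(TPM + 1) and 0.014 with the replicate block, and SOX9 to -0.019 under total counts. The cause was not tested.

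Over all genes, 7 were called as fitted, 12 without a filter, 13 on log2(TPM + 1), 574 in DESeq2, 88 without DMSO 1, 34 without DMSO 2 and 0 without either HJ-4 library (1030 and 1184 genes at an unadjusted p under 0.05, against 2228 as fitted). The labels do not say whether same-numbered libraries were paired, and pairing was not tested. Deviations of same-numbered libraries correlated at -0.10 over genes. The replicate block gave 31 genes over all and no member called. At an unadjusted p under 0.05 it gave 10 members, beside 1759 of the 14044 genes tested. With the numbers crossed, 0 genes were called and 13 members had an unadjusted p under 0.05, beside 2275 of the 14044 genes tested.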

Other observations

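Of 25 listed ligand and secretion genes, 18 were tested, and WNT16 led the ligands at 29.9 CPM per kilobase over the 4 libraries, followed by WNT7B at 10.6 and WNT6 at 5.48. WNT7B was at 63.1 and 54.7 CPM with DMSO and at 46.7 and 50.8 CPM with HJ-4, and WNT7A at 9.78 and 8.34 CPM and at 11.8 and 12.7 CPM. WLS, which carries Wnt ligands to the cell surface, was at 78.6 and 69.5 CPM with DMSO and at 74.7 and 68.2 CPM with HJ-4. WNT5A, WNT9B and RSPO3 had no count in any library. Among the secreted inhibitors listed beside DKK1 and NOTUM, FRZB was at 9.11 and 10.7 CPM with DMSO and at 9.81 and 9.17 CPM with HJ-4, and SFRP2 and WIF1 had no count.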
